A study of Mus musculus with 18 samples.

Results

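Genes that mark serotonergic neurons and genes of serotonin receptors were followed across frontal cortex, striatum and midbrain of mice given MPTP or saline. The set was every probe set whose annotated symbol was Tph2, Slc6a4, Fev, Htr1a, Htr1b, Htr2a, Htr2c or Htr4. It came to 10 of 45101 probe sets on the array and covered 6 of the 8 genes. Tph2 and Slc6a4 had 1 probe set each, and Htr1a, Htr1b, Htr2c and Htr4 had 2 each. Fev and Htr2a were matched to no probe set and were not analysed here.

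All animals were C57BL/6J males aged 14 weeks. MPTP, a toxin that kills dopaminergic neurons of the midbrain, was given intraperitoneally at 30 mg/kg (as the free base) once daily for 5 days, and the control animals received saline by the same route. Tissue was taken 4 days after the last injection, and total RNA of each region was hybridised to 1 Affymetrix array per sample, giving 6 region-by-treatment groups of 3 arrays (18 in all). The labels name 3 animals per treatment and do not say which arrays share an animal. Values were log2 expression values between 2.48 and 14.2 on the arrays as a whole. Array medians lay between 5.14 and 5.21, and arrays of 1 group correlated at r = 0.991 to 0.997 across all probe sets. The dissections carried their regional markers: all 7 cortical glutamatergic markers on the array reached 5.18 (the median of all values, used here as the filter on low values) on every cortical array, all 7 striatal spiny neuron markers did so on every striatal array, and 6 of 7 dopaminergic markers did so on every midbrain array. On arrays of the other regions 3 to 5, 5 to 6 and 2 to 4 of the 7 also did so, in that order of lists. The mean levels lay further apart. They were 8.44 to 8.70 in cortex against 4.66 to 6.44 elsewhere for the cortical list, and 11.24 to 11.41 in striatum against 6.21 to 6.84 for the spiny neuron list. For the dopaminergic list they were 8.18 to 8.68 in midbrain against 5.51 to 6.17. Between treatments in midbrain, Th (tyrosine hydroxylase, which makes the dopamine precursor) was lower by 0.82 (log2) in the MPTP group and the groups did not overlap, with an adjusted p of 0.133 (limma, Benjamini-Hochberg).

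Serotonin neurons sit in the raphe nuclei of the brainstem and send axons to nearly the whole forebrain. They make serotonin from tryptophan with tryptophan hydroxylase 2 (Tph2), load it into vesicles with the transporter that dopamine neurons also use (Slc18a2), and take it back up with the serotonin transporter (Slc6a4). The transcription factor Fev (Pet-1), of the ETS family, keeps that gene programme on. Htr1a and Htr1b encode inhibitory receptors that act both as autoreceptors on serotonin neurons and as receptors on other neurons. Htr2c encodes a receptor that signals through phospholipase C, and Htr4 one that raises cyclic AMP.

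The promoters of Tph2 and Slc6a4 are shown because both genes are textbook targets of Fev and stood at their highest level in the same tissue. Each sequence is the 250 bases before the RefSeq start site (mouse build GRCm38.p6), read along the gene's strand from 5′ to 3′. Capitals mark GGAA, the core of an ETS factor's site, or its reverse complement TTCC. The Tph2 promoter is at chr10:115185023-115185272 on the minus strand and the Slc6a4 promoter at chr11:76998347-76998596 on the plus strand.
Tph2: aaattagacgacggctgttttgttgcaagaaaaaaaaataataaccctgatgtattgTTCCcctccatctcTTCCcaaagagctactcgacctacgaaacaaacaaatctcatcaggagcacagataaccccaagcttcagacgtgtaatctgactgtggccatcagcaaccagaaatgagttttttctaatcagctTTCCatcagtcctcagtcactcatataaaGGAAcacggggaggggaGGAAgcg
Slc6a4: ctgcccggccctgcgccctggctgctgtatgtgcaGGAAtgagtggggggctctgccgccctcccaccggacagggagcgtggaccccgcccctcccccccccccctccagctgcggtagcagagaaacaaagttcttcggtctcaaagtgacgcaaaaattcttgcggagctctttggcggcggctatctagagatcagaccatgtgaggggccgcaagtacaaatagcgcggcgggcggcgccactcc
The Tph2 promoter held 5 matches to GGAA on either strand and the Slc6a4 promoter 1. Both are ordinary in this respect, since 93.4% of 32851 RefSeq promoter windows of the same length held at least 1. The same search found 6 matches in the Htr1b promoter and 3 each in those of Htr1a and Htr2c. A longer ETS core, CCGGAA, was in none of these 5 promoters and in 12% of all windows. GATA, the core bound by factors such as Gata2 and Gata3, was found once in the promoters of Tph2, Slc6a4, Htr1a and Htr1b and was absent from that of Htr2c, against 53.6% of all windows with at least 1 match. Tph2 alone among these 5 carried TATAAA, which began 30 bases before the start site (12.4% of all windows hold it). A match describes the letters only. A promoter sequence was found for 7 of the 8 genes.

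Tph2 was a midbrain gene in these samples. Its 3 saline midbrain arrays read 4.59, 5.87 and 6.45, and its 3 MPTP midbrain arrays 6.37, 4.34 and 6.59. Frontal cortex gave 2.99, 3.13 and 3.13 in saline and 3.02, 3.00 and 2.76 in MPTP, and striatum 3.20, 3.21 and 3.01 in saline and 3.29, 3.20 and 2.90 in MPTP. Every midbrain array lay above every array of the other regions, and all 12 arrays of the other regions were far below the filter value. In saline animals midbrain exceeded frontal cortex by 2.55 ± 0.399 (SE, log2; adjusted p = 8.11e-06) and striatum by 2.50 ± 0.399 (adjusted p = 9.21e-06). Tph2 entered the tests through midbrain alone, where it was high, so the direction of these differences was in part fixed by the filter. The SE is taken over all 6 groups, although the saline SD was 0.953 in midbrain, 0.0828 in frontal cortex and 0.115 in striatum. Under 15 alternatives both calls were kept, with adjusted p up to 0.00114. How well the array resolves levels below the filter value was not measured. The difference that can be read from the filter value upward is at least 0.46 in saline and 0.59 in MPTP arrays. Those limits use the midbrain mean, and 1 of the 3 midbrain arrays of each treatment was itself below the filter value.

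Slc6a4 followed Tph2. Saline midbrain arrays read 5.57, 6.42 and 6.73 and MPTP midbrain arrays 7.16, 5.21 and 6.80. Frontal cortex averaged 3.55 ± 0.160 (SD, n = 3) in saline and 3.58 in MPTP, and striatum 3.95 ± 0.0520 and 3.80, and no forebrain array reached the lowest midbrain array. In saline animals the transporter transcript was higher in midbrain than in frontal cortex by 2.69 ± 0.313 (adjusted p = 9.3e-08) and than in striatum by 2.28 ± 0.313 (adjusted p = 1.06e-06), with a lower limit of 1.06 from the filter value. Slc6a4 too entered the tests through midbrain alone, which in part fixed the direction. The SE again covers groups of unequal spread, with an SD of 0.599 in saline midbrain. Both calls were kept under 15 alternatives, with adjusted p up to 0.000251. The small step between striatum and frontal cortex (0.41, adjusted p = 0.312) did not pass the test although the saline arrays of these regions did not overlap. With only the arrays of those 2 groups in the fit its adjusted p was 0.0211, and this was the 1 of 15 alternatives that called it. Every array of both groups lay below the filter value. The mean of the 7 serotonergic markers on the array, which include both genes, ran from 6.43 to 7.10 in midbrain, with 5 or 6 of the 7 at or above 5.18, from 4.47 to 4.53 in frontal cortex and from 4.76 to 4.87 in striatum. Ddc and Slc18a2 in that list are also genes of dopamine neurons. In tissue pieces such as these, fewer cells of a type and less RNA per cell cannot be told apart.

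The 2 serotonergic genes varied far more between midbrain pieces than between treatments. Tph2 was 5.64 ± 0.953 (SD, n = 3) in saline midbrain and 5.77 ± 1.24 in MPTP midbrain, a difference of 0.13 ± 0.399 (SE) with a 95% interval of -0.70 to 0.95 and an adjusted p of 0.914. Slc6a4 was 6.24 ± 0.599 in saline and 6.39 ± 1.04 in MPTP, a difference of 0.15 ± 0.313 (interval -0.49 to 0.80, adjusted p = 0.859). Both groups overlapped almost fully for both genes, with a low array in each treatment: saline replicate 1 and MPTP replicate 2. The limma intervals borrow the spread of other genes and other regions. From the 6 midbrain arrays alone, with no borrowing, the interval of the Tph2 difference was -2.38 to 2.64 and that of Slc6a4 -1.77 to 2.07, so a change of several fold in either direction would not have been detectable. The exact 2-sided permutation test of 3 against 3 arrays gave p = 0.9 for Tph2 and p = 0.7 for Slc6a4, where the smallest p the design allows is 0.1.

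**Figure D1:**
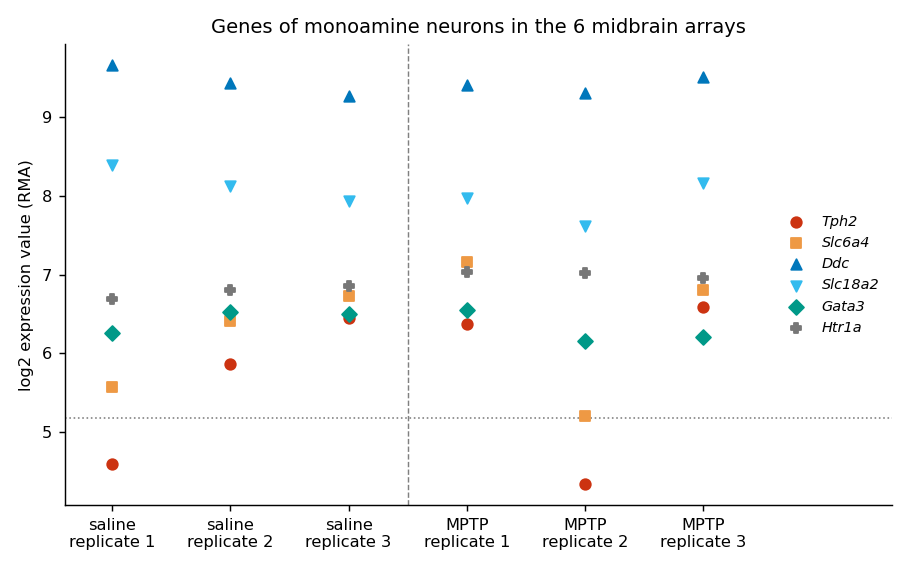
Log2 expression values of 6 genes in each of the 6 midbrain arrays, 1 point per array, with the dotted line at the filter value of 5.18 and the dashed line between treatments. Tph2 and Slc6a4 drop together in saline replicate 1 and MPTP replicate 2, while Ddc, Slc18a2, Gata3 and Htr1a stay within 0.77 of their own lowest array.

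The spread of Tph2 within the midbrain groups (pooled SD 1.11) ranked 5 among 11741 genes tested, and that of Slc6a4 (0.847) ranked 14, against a median of 0.134. Across the 6 midbrain arrays the 2 genes moved together, with Pearson's r = 0.968 (exact permutation p = 0.00694 over 720 orders, 2-sided) and Spearman's rho = 0.829 (exact permutation p = 0.0583). Without the 2 arrays farthest from the median of Tph2, which were the low arrays named above, r was 0.635 over 4 arrays. Leaving them out also narrows the range of Tph2, and 4 arrays are too few to say how far the relation rests on those 2 arrays. Tph2 was below the filter value in both of them. Genes that serotonin neurons share with dopamine or other neurons did not span such a range. Tph2 spanned 2.26 and Slc6a4 1.95, while Ddc (the decarboxylase of both transmitters) spanned 0.395, Slc18a2 0.769, Gata3 0.40 and Gata2 0.435. Within that smaller range Gata3 was lowest of its treatment in saline replicate 1 (6.26) and in MPTP replicate 2 (6.15). Ddc, Slc18a2 and Gata2 were not lowest of their treatment in both arrays.

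Markers of neighbouring tissue also differed between these midbrain pieces. Pmch, a peptide of the lateral hypothalamus, read 7.48 in saline replicate 1 and between 4.86 and 5.64 in the other 5 midbrain arrays. Pmch is 1 of 6 hypothalamic markers on the array. Their mean, Pmch included, was 5.37 in saline replicate 1, 5.07 and 5.05 in saline replicates 2 and 3, and 4.94 to 5.01 in MPTP midbrain. In each saline midbrain array 3 of the 6 reached the filter value, so that count did not set replicate 1 apart. Among the genes with the widest spread in midbrain, which were picked after their values were seen, were Pcp2, a gene of cerebellar Purkinje cells, with pooled SD 1.62, Slc6a5, the glycine transporter of hindbrain neurons, with 1.26, and Prkcd, which is strong in thalamus, with 1.04. Saline replicate 1 was the lowest of the 6 for Pcp2 (4.07) and Slc6a5 (4.72) and the highest for Prkcd (9.40, against 6.12 to 7.11 in the others). In MPTP replicate 2 Pcp2 read 5.62, above MPTP replicates 1 and 3 (5.35 and 5.15). Slc6a5 read 5.58 there, below MPTP replicates 1 and 3 (6.02 and 5.94). MPTP replicate 2 was the lowest for Prkcd and for Pmch, at 6.12 and 4.86, and the highest for the mean of the 5 hindbrain Hox genes on the array (4.39, against 3.88 to 4.17), of which 1 reached the filter value in every midbrain array. The part that the extent of the dissection played in the Tph2 and Slc6a4 values was not tested.

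**Figure D2:**
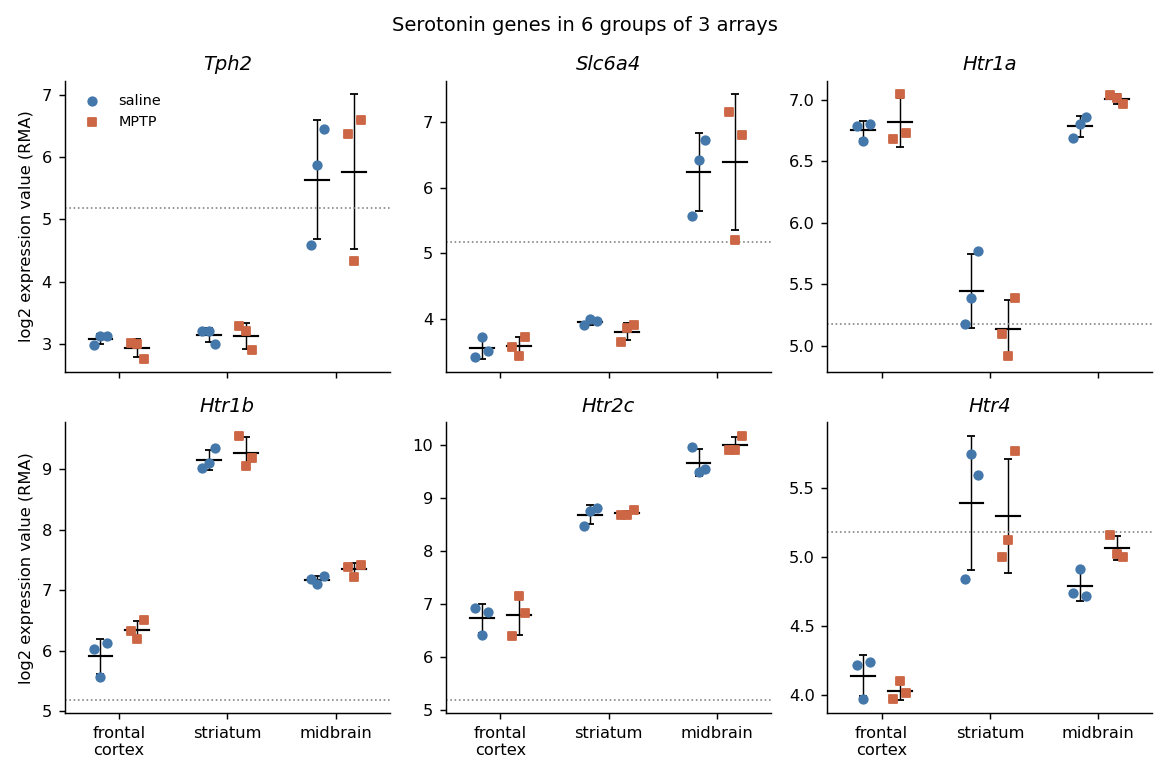
Log2 expression values of the 6 genes in each array by region and treatment, with horizontal bars at the group mean, error bars of 1 SD (n = 3) and a dotted line at the filter value of 5.18. Axes differ between genes and do not start at 0. All 6 midbrain arrays of Slc6a4 and 4 of the 6 of Tph2 stand above the line, with no forebrain array of either, Htr1b is highest in striatum, Htr2c is highest in midbrain and Htr1a is lowest in striatum.

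The receptors divided the 3 regions between them in another way. Htr1a (the receptor of raphe cell bodies and of cortical and hippocampal pyramidal cells) was as high in frontal cortex as in midbrain and low in striatum. In saline it read 6.78, 6.67 and 6.81 for frontal cortex, 5.18, 5.38 and 5.77 for striatum and 6.69, 6.80 and 6.86 for midbrain. Cortex and midbrain overlapped, and every striatal array lay below both. Striatum was lower than frontal cortex by 1.31 ± 0.139 (adjusted p = 3.04e-08) and lower than midbrain by 1.34 (adjusted p = 1.25e-08), while midbrain and cortex differed by 0.03 (interval -0.26 to 0.32, adjusted p = 0.869). The other Htr1a probe set also placed striatum lowest, with saline means of 5.69 for frontal cortex, 4.76 for striatum and 5.53 for midbrain, and its midbrain and cortex did not pass the test either (-0.16, adjusted p = 0.5).

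In midbrain the Htr1a transcript spanned 0.349 over the 6 arrays, and its pooled SD of 0.067 was smaller than that of 94% of genes tested. In saline replicate 1 and MPTP replicate 2, where Tph2 was lowest, Htr1a read 6.69, the lowest of the 6, and 7.02, the second highest. The other 4 arrays read 6.80 to 7.04. The other probe set read 5.10 in saline replicate 1, again its lowest, 5.68 in MPTP replicate 2 and 5.53 to 5.82 in the other 4. Whether Htr1a varied with Tph2 was not tested.

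Htr1b is the autoreceptor of serotonin axon terminals, and its transcript is also abundant in striatal projection neurons. Here it was highest in striatum, as the dimmer Htr4 was with its brighter probe set. In saline the Htr1b arrays read 9.02, 9.10 and 9.34 in striatum, 7.18, 7.10 and 7.23 in midbrain and 6.02, 5.57 and 6.12 in frontal cortex. The 3 regions did not overlap, in the order striatum, midbrain, frontal cortex. Striatum exceeded frontal cortex by 3.25 ± 0.135 (9.55-fold, adjusted p = 1.64e-15) and midbrain by 1.99 (adjusted p = 6.62e-12). The step from frontal cortex to midbrain, 1.27 ± 0.135 (adjusted p = 2.17e-08), was seen with this probe set only: the other one gave saline means of 5.65 in frontal cortex and 5.64 in midbrain, with 6.72 in striatum. Its rank between midbrain and cortex therefore depends on the probe set, and its place at the top in striatum does not.

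Htr2c rose in steps from frontal cortex through striatum to midbrain. Saline arrays read 6.93, 6.42 and 6.84 for frontal cortex, 8.48, 8.76 and 8.81 for striatum and 9.97, 9.49 and 9.54 for midbrain, with no overlap between regions. Midbrain exceeded frontal cortex by 2.94 ± 0.154 (7.67-fold, adjusted p = 6.53e-14) and striatum by 0.98 (adjusted p = 7.52e-06), and striatum exceeded frontal cortex by 1.96 (adjusted p = 1.86e-10). The second probe set gave the same order, at 4.98, 7.04 and 8.22. Choroid plexus is the tissue with the strongest Htr2c expression in brain, so its markers were set beside these values. Of its 8 markers on the array, 5 (Folr1, Kl, Slc4a5, Kcnj13 and Aqp1) were below the filter value on all 18 arrays, and no array had more than 2 at or above it. The mean of the 8 ran from 4.81 to 4.86 in saline striatum and 4.39 to 4.81 in MPTP striatum, from 4.63 to 4.80 in saline midbrain and 4.47 to 4.69 in MPTP midbrain, and from 3.88 to 4.16 in frontal cortex. Ttr, its most abundant transcript, ran from 10.14 to 10.61 in saline striatum and from 7.01 to 10.18 in MPTP striatum, while Htr2c in those arrays lay between 8.48 and 8.81. Midbrain, where Htr2c was highest, had Ttr from 7.22 to 8.18 in saline and 5.48 to 7.51 in MPTP. Clic6 was also highest in striatum (5.87 to 6.57 over both treatments, against 4.89 to 5.20 in midbrain). Otx2, which midbrain neurons express too, was highest in midbrain, as Htr2c was: it read 5.16 to 5.71 in saline midbrain and 5.35 to 6.02 in MPTP midbrain, with means of 3.29 and 3.24 in striatum. The part of choroid plexus in the Htr2c values was not tested.

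Htr4 was dim. In saline its brighter probe set read 4.21, 3.97 and 4.24 for frontal cortex, 4.84, 5.75 and 5.59 for striatum and 4.74, 4.91 and 4.72 for midbrain. Only the striatal mean over both treatments (5.34) reached the filter value, so values in the other regions are near or in the array's background. Htr4 thus entered the tests through striatum alone, which in part fixed the direction of its differences from striatum. Striatum exceeded frontal cortex by 1.25 ± 0.193 (adjusted p = 8.65e-06, with a lower limit of 0.21 from the filter value) and midbrain exceeded frontal cortex by 0.65 (adjusted p = 0.00667). Midbrain was lower than striatum by 0.60 in saline (adjusted p = 0.00973), but the groups overlapped. In MPTP arrays that difference was -0.23 (adjusted p = 0.312), and the other probe set gave -0.08 in saline. The call was also lost without saline striatal replicate 2 (-0.42, adjusted p = 0.0846) or replicate 3 (-0.50, adjusted p = 0.0531).

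The region differences were computed in the saline arrays and again in the MPTP arrays, which come from other animals. Of the 6 genes, 4 differed between saline striatum and frontal cortex (44% of all genes tested did), 5 between saline midbrain and frontal cortex (51.3% did) and 6 between saline midbrain and striatum (58.2% did). In MPTP arrays the counts were 4 (49.2%), 5 (54.3%) and 5 (59.1%). Tph2 and Slc6a4 passed the filter through midbrain alone and Htr4 through striatum alone, the regions where they were high, so these counts say nothing about the set. In MPTP arrays midbrain exceeded frontal cortex by 2.84 for Tph2, 2.81 for Slc6a4 and 3.21 for Htr2c. Striatum exceeded frontal cortex by 2.93 for Htr1b and was lower than frontal cortex by 1.69 for Htr1a.

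None of the 6 genes changed with MPTP in any region at an adjusted p under 0.05 (limma fitted across 11741 genes). The cortical comparison called 0 of 6, against 0.0681% of genes tested. The striatal one called 0 of 6, against 2.1%, and the midbrain one 0 of 6, against 2.54%. Over the 3 regions together 0 of 6 passed against 9.04%. At an unadjusted p under 0.05, 1 of the 6 was counted in each of these 4 comparisons: Htr1b in frontal cortex (6.13% of genes tested were counted), Htr1a in striatum (16.3%), Htr2c in midbrain (16.6%) and Htr1b over the regions (24.3%). With 3 animals a treatment, these p-values rest on few samples. Their spread is estimated over all 6 groups and partly borrowed from other genes.

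**Figure D3:**
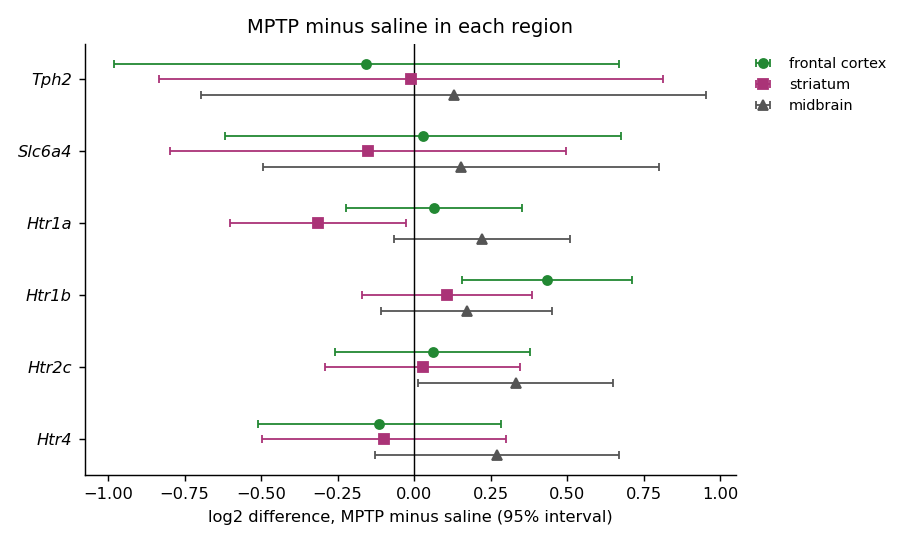
Differences between MPTP and saline group means (log2, 3 arrays against 3) of the 6 genes in frontal cortex, striatum and midbrain, with 95% intervals from the limma fit across all genes and a vertical line at 0. Tph2 and Slc6a4 have the widest intervals, and the intervals of Htr1b in frontal cortex, Htr1a in striatum and Htr2c in midbrain do not reach 0 before adjustment for the number of genes.

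Htr1b had the lowest unadjusted p of the 6 genes. Its MPTP arrays in frontal cortex read 6.32, 6.19 and 6.50 against 6.02, 5.57 and 6.12 in saline, all 3 above all saline arrays. The difference was 0.43 ± 0.135 (interval 0.15 to 0.71, unadjusted p = 0.00381, adjusted p = 0.465). In striatum MPTP arrays read 9.56, 9.05 and 9.19, and in midbrain 7.38, 7.22 and 7.42, differences of 0.11 and 0.17 (adjusted p = 0.753 and 0.564) with overlapping groups. The mean over the 3 regions was 0.24 ± 0.0783 (1.18-fold, interval 0.08 to 0.40, adjusted p = 0.0578), just outside the threshold. It came inside the threshold under 7 alternatives, with adjusted p between 0.0206 and 0.047: a second quantile normalization, robust variances, the replicate number as a block, and leaving out cortical saline replicate 1 or 3, striatal MPTP replicate 2 or striatal saline replicate 3. The other Htr1b probe set did not show it, with -0.10 in frontal cortex, 0.03 in striatum, 0.18 in midbrain and 0.04 over the regions (adjusted p = 0.828).

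Htr1a in striatum was lower after MPTP by 0.31 ± 0.139 (interval -0.60 to -0.03, unadjusted p = 0.0342, adjusted p = 0.258). The MPTP arrays read 5.09, 4.91 and 5.39, 2 of 3 below every saline array, and the groups overlapped. In striatum 2 of 3 MPTP arrays and 1 of 3 saline arrays lay below the filter value. The other probe set gave -0.01, with all its striatal arrays below that value. The mean of the 7 cortical glutamatergic markers in the same striatal arrays ran from 5.79 to 6.44 in saline and from 4.66 to 6.00 in MPTP, with 3 to 5 of the 7 reaching 5.18 on an array, and its part in the Htr1a value was not tested. In midbrain the 3 MPTP arrays of Htr1a (7.04, 7.02 and 6.96) lay above the 3 saline arrays, a difference of 0.22 (interval -0.07 to 0.51, adjusted p = 0.442), and the frontal cortex groups (MPTP arrays 6.68, 7.04 and 6.73) differed by 0.06 (adjusted p = 0.964).

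Htr2c in midbrain read 9.90, 9.91 and 10.18 after MPTP. Saline replicate 1, at 9.97, lay within that range, and the difference was 0.33 ± 0.154 (interval 0.01 to 0.65, unadjusted p = 0.042, adjusted p = 0.277). The second probe set gave 0.13 (adjusted p = 0.82). In frontal cortex (6.39, 7.14 and 6.83) and striatum (8.69, 8.68 and 8.77) the MPTP arrays differed from saline by 0.06 and 0.03. Htr4 in midbrain read 5.16, 5.02 and 5.00 after MPTP, all above saline, with a difference of 0.27 (adjusted p = 0.509) at levels under the filter value, and -0.04 with the other probe set. In striatum its MPTP arrays read 5.00, 5.12 and 5.76 and in frontal cortex 3.97, 4.10 and 4.01, with differences of -0.10 and -0.11.

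The MPTP differences were also compared between regions. Of the 6 genes, 0 passed for striatum against frontal cortex (0.0596% of genes tested did, and 0 of 6 had an unadjusted p under 0.05), 0 for midbrain against frontal cortex (0% did, with 584 of all genes and 0 of 6 at an unadjusted p under 0.05) and 0 for midbrain against striatum (0.0681% did). In the last comparison Htr1a had the lowest p: its MPTP difference was higher in midbrain than in striatum by 0.53 ± 0.197 (interval 0.13 to 0.94, unadjusted p = 0.0122, adjusted p = 0.705), and by 0.09 with its other probe set.

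Of the enzymes and carriers that make, store and clear serotonin, those tested were mostly higher in midbrain and did not pass the test with MPTP. Of 16 such genes on the array 12 were tested, Tph2 and Slc6a4 among them, and all 12 were higher in saline midbrain than in frontal cortex (27.8% of all genes tested were), with a median of 0.874 against 0.022 over all genes tested. Tph2, Slc6a4 and Slc18a2 passed the filter through midbrain alone, where they were high. The median and the counts of genes higher in midbrain are therefore in part fixed by the filter. Apart from Tph2 and Slc6a4, the largest were Ddc with 4.28 and Slc18a2 with 3.56 (at least 2.97 from the filter value), both also genes of dopamine neurons. Pcbd1 (which recycles the pterin cofactor of the hydroxylases) had 1.49, and Qdpr (which regenerates that cofactor) went from 10.96 in frontal cortex to 11.96 in midbrain. Against striatum 10 of 12 were higher (33.4% of all genes tested were), including the monoamine oxidase Maoa by 0.76. With MPTP 0 of 12 passed in any region (0.0681% to 2.54% of genes tested did) or over the regions (9.04% did). The lowest p in striatum belonged to Ddc (0.37, adjusted p = 0.192, groups apart), followed by Spr, which makes the pterin cofactor (-0.26, adjusted p = 0.227, groups apart). Over the regions it belonged to Spr (-0.16, adjusted p = 0.131). In midbrain it belonged to Maob, the oxidase that serotonin neurons and astrocytes contain and that converts MPTP to its toxic form (0.27, adjusted p = 0.248).

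Transcription factors of serotonergic neurons gave 6 tested genes of 8 on the array. In saline midbrain 4 were higher than in frontal cortex and 1 lower (27.8% and 23.6% of all genes tested were). Gata3 was higher by 2.84 (at least 1.25 from the filter value) and Nkx2-2 (a progenitor factor that oligodendrocyte precursors also express) by 2.08. En2 was higher by 1.51 (at least 0.35) and Gata2 by 0.74. Insm1 was the lower gene, with saline means of 4.76 in midbrain and 5.24 in frontal cortex, and Lmx1b was not called. Gata3 and En2 passed the filter through midbrain alone, and Lmx1b and Insm1 through striatum alone. The counts are therefore in part fixed by the filter. Gata2 and Gata3 also serve GABAergic neurons of the midbrain, and En2 its dopamine neurons. With MPTP 0 of 6 passed in any region (0.0681% to 2.54% of genes tested did). En2 in midbrain was closest, with 0.48 (adjusted p = 0.071).

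**Figure D4:**
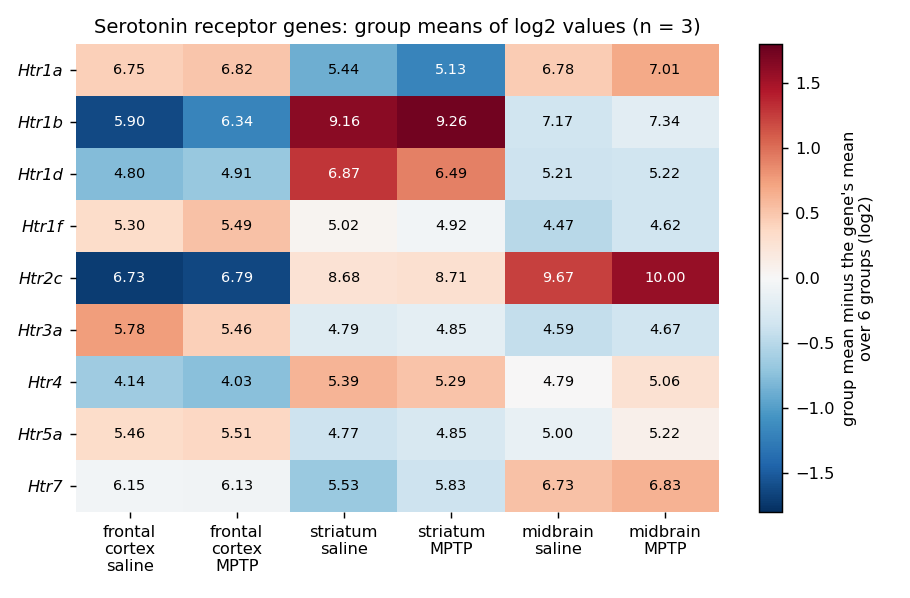
Group means (log2, n = 3 arrays) of the 9 serotonin receptor genes tested, with colour for the group mean minus the gene's own mean over the 6 groups. In both treatments Htr1b, Htr1d and Htr4 are highest in striatum, Htr2c and Htr7 in midbrain and Htr1f, Htr3a and Htr5a in frontal cortex.

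Of 13 serotonin receptor genes on the array 9 were tested, and their regions differed from subtype to subtype. In saline 4 were higher and 4 lower in striatum than in frontal cortex (44% of all genes tested were called), 5 higher and 3 lower in midbrain than in frontal cortex (51.3%), and 3 higher and 4 lower in midbrain than in striatum (58.2%). Htr1f, Htr3a and Htr5a, the 3 lower in midbrain than in frontal cortex, passed the filter through frontal cortex alone and Htr4 through striatum alone, so these counts say nothing about the list. Htr1d, the closest relative of Htr1b, was also highest in striatum, with saline means of 6.87 in striatum, 5.21 in midbrain and 4.80 in frontal cortex. Htr7 was highest in midbrain, at 6.73, and lowest in striatum, at 5.53. Htr3a, the ion-channel receptor of a class of cortical interneurons, had saline means of 5.78 in frontal cortex and 4.59 in midbrain, below the filter value, so the difference that can be read is at least 0.60. With MPTP 0 of 9 passed in any region (0.0681% to 2.54% of genes tested did). Among the 5 receptor genes not described above, the lowest p-values belonged to Htr3a in frontal cortex (-0.32, adjusted p = 0.78), Htr7 and Htr1d in striatum (0.29 and -0.38, adjusted p = 0.202 and 0.235) and Htr5a in midbrain (0.22, adjusted p = 0.372).

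The 22 genes of receptor partners and effectors (G proteins, potassium channels, phospholipases, adenylyl cyclases, RNA-editing enzymes of the Htr2c transcript) were all tested. With MPTP 0 of 22 passed in any single region, where 0.0681% to 2.54% of genes tested did. Over the 3 regions 1 of 22 was called, against 9.04% of genes tested (2.43% were lower). It was Kcnj9, a subunit of the potassium channels that Htr1a opens, which fell by 0.22 ± 0.0674 (adjusted p = 0.0441). That call was lost in 14 of 27 alternatives, among them the fits without striatal saline replicate 2 (adjusted p = 0.158) and without cortical MPTP replicate 2 (adjusted p = 0.113). In midbrain Adarb1, which edits the Htr2c transcript, had -0.30 (adjusted p = 0.0733). Adcy5 and Gnal, the adenylyl cyclase and G protein of striatal neurons, were lower in saline midbrain than in striatum by 3.03 and 2.05, and Plcb1 by 1.64, while Plcb4 was higher by 2.50.

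Genes whose levels ran most closely with each gene over the 18 arrays were listed as a description. These arrays share 3 regions, so a high correlation mostly says that genes share a regional order. For Tph2 the closest was Slc6a4 (r = 0.983), followed by Bbox1 (0.940) and Fgf1 (0.936), and Slc6a4 had Tph2, Bbox1 (0.96) and Fgf1 (0.954). Htr1a ran with Efr3a (0.990), Plcxd2 (0.986) and Hapln4 (0.983), and Htr1b with Ryr3 (0.994), Tbc1d16 (0.988) and Clip4 (0.986). Htr2c ran with Il33 (0.994), Zcchc12 (0.990) and Plekhb1 (0.987). For Htr4 the highest values were lower, with Rrp1b (0.917), Slc32a1 (the vesicular GABA transporter, 0.916) and Limch1 (0.916).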

How the data were processed

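RNA from 18 samples was measured on Affymetrix arrays, and the authors deposited log2 expression values made with RMA, per the submitters' processing notes. The RMA version and settings are not given in the sources used here. Probe sets were named from the platform annotation: 34958 had 1 gene, 932 several and 9211 none listed, and 34754 symbols were updated through the Entrez ID. Each gene took its probe set of highest mean. A gene entered the tests where its mean in 1 or more regions was 5.18 or above, the median value on the arrays (11741 of 18194 genes). limma 3.58.1 in R 4.3.3 fitted 1 mean per group over all 18 arrays with an intensity trend, with p-values adjusted by Benjamini-Hochberg over all genes tested and called under 0.05. The mean over regions took treatment and replicate number together as a random block, on the assumption, which the labels do not state, that a number marks 1 animal in the 3 regions. The fitted correlation was 0.00558, and deviations of same-numbered samples of 1 treatment correlated at -0.233 to 0.342 between regions, over 0.1 in 11 of 18 pairs. Replicate numbers come from the labels, and the main fit did not use them to pair MPTP with saline samples.

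Named genes were all members, up to 4 genes per pathway list and comparison (called first, then by p), markers set beside a member, and the 3 most correlated genes of each member. Members and lists were chosen with earlier results of these data known. The fits were tested on simulated data. The number of arrays limits the precision, and the depth of an array has no read count. Sequences are from RefSeq.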

Additional observations from a re-analysis of the deposited data

How the results depend on the processing

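Alternatives changed the filter, the normalization, the probe set, the variance model, the blocks and the arrays used. Of 1409 gene values under them, 1396 kept their side of the threshold, though 90 of these, called in neither fit, changed sign. The count of genes called with MPTP over the 3 regions went from 0 to 1, always Htr1b, after a second quantile normalization (0.22, adjusted p = 0.0425), with robust variances (adjusted p = 0.047) and with the replicate block (0.24, adjusted p = 0.0206), and was 0 to 1 when single arrays were left out. In the other 6 MPTP comparisons no alternative called any of the 6 genes. Htr1b in saline midbrain against frontal cortex reversed with its other probe set (-0.012), and in MPTP arrays that probe set lost the call (0.27, adjusted p = 0.113). A filter at the 75th percentile left 2 genes, Htr1b and Htr2c, and called 2 in each of the 6 region comparisons. Same-numbered MPTP and saline samples had correlated deviations of -0.194 to 0.294, over 0.1 in 3 of 9 pairs. Whether they shared more than a number, such as a processing batch, was not tested. The replicate block changed no other call. Tph2, Slc6a4 and Htr4 are limited by signal near background outside 1 region.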
